A study of Drosophila melanogaster with 3 samples.

Results

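The genes described here encode the factors that start and extend translation in Drosophila melanogaster, and the question is where the transcription factor Pipsqueak (Psq) was found near them. They are the 52 protein-coding genes, of 13968 on the nuclear chromosomes, whose symbol in the Ensembl annotation of dm6 begins with eIF or eEF. The rule uses the symbols and no measured value. Binding was measured by chromatin immunoprecipitation and sequencing (ChIP-seq), in which DNA attached to a protein is recovered with an antibody and sequenced. The series has 1 group of 3 biological replicates: whole wandering larvae of the third instar, males and females pooled, of a transgenic line (strain psq-GFP) that stably makes Psq fused C-terminally to green fluorescent protein (psq-eGFP). The antibody recognised the fluorescent protein, so only tagged Psq was recovered, and what drives the transgene is not given in the sources used here. Every larva carried the transgene, and the peaks average over all cell types of the animal. With a single group there is no difference between conditions to test, and the values below are descriptions.

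Translation begins when initiation factors bring the initiator tRNA and the small ribosomal subunit to the cap of an mRNA. They then scan to the start codon and allow the large subunit to join. Elongation factors then deliver each aminoacyl-tRNA and move the ribosome along. Most of these factors are needed in every growing tissue, some copies are known mainly from the germline, and larval growth depends on protein synthesis. Psq is a BTB-domain protein known for binding GA-repeat DNA.

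Of the 52 factor genes, 21 (40.4%) had a summit of the authors' optimal peak list within 1000 bp of a transcription start site (TSS), against 28.7% of all protein-coding genes. Such a gene is called bound below, and a gene without such a summit is only without a call. In the strongest peaks of each replicate, as many as the optimal list holds, 22 of the factor genes were bound in replicate 1, 25 in replicate 2 and 23 in replicate 3. The matching shares of all protein-coding genes were 29.4%, 29.7% and 28.2%. Over the replicates 44.9% ± 2.94 of the factor genes and 29.1% ± 0.775 of all protein-coding genes were bound (SD, n = 3 each). Every replicate bound 20 of the 52 (38.5%), against 21.7% of all protein-coding genes. When a summit was counted only for the gene with the nearest TSS, 18 (34.6%) were bound, against 23.0%. In each of these counts the share of the factor genes was above that of all genes.

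The number of TSSs moves with these shares and differs between genes. Of the factor genes with 1 TSS, 8 of 32 (25.0%) were bound, against 20.5% of all such genes. With 2 TSSs the count was 10 of 17 (58.8%), against 43.5%, and with 3 or more it was 3 of 3, against 68.8%. The part of TSS number in the overall share was not tested.

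**Figure D1:**
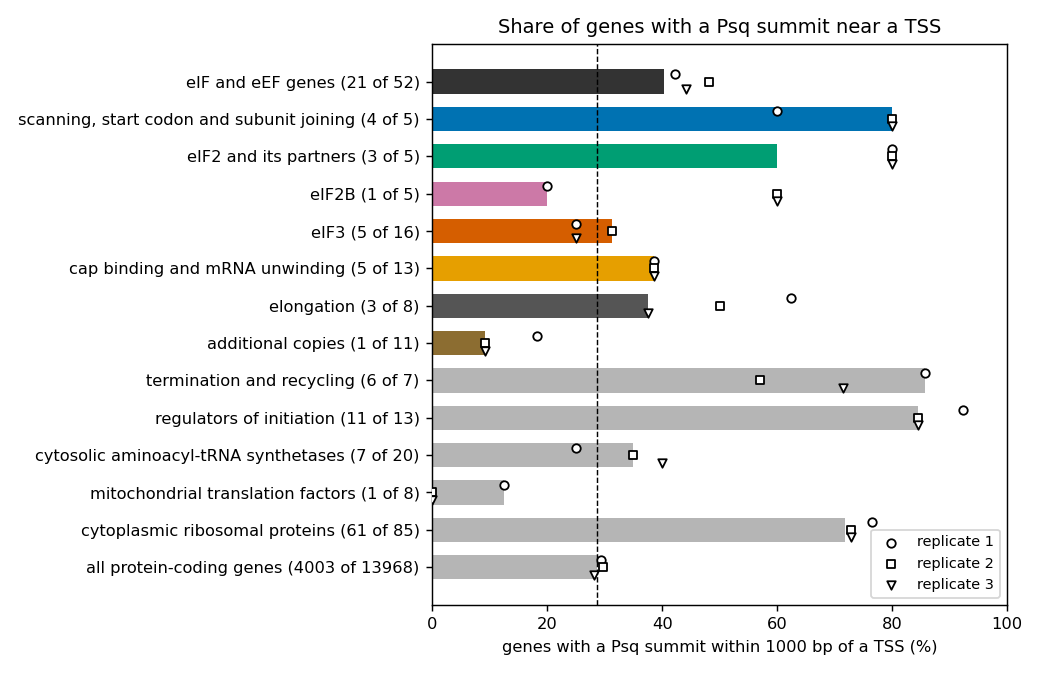
Horizontal bars give the percent of genes with a Psq summit within 1000 bp of a TSS in the optimal list, for all eIF and eEF genes, their functional groups, their additional copies, other translation gene lists and all protein-coding genes, and open symbols give the same for the strongest peaks of each replicate. The dashed line marks the 28.7% of all protein-coding genes; scanning and subunit joining factors, regulators of initiation, termination factors and ribosomal protein genes lie far to its right, and the bars of eIF2B, additional copies and mitochondrial factors to its left, although 3 of the 5 eIF2B genes were bound in replicates 2 and 3.

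The strongest peaks were near the genes of eIF2Bbeta, eEF1alpha1, eIF1, eIF3h and eIF4A. All of these summits but that of eIF4A lay nearer to the TSS of another gene. A peak's score is the authors' own value. To set replicates side by side it was divided by the median score of the strongest peaks of that replicate (relative score). Over the 20 bound genes with a replicate summit within 200 bp, the median of the relative score of a gene's strongest peak was 1.79, with quartiles of 1.29 and 3.10. Over all 4003 bound protein-coding genes the median was 1.20, with quartiles of 0.756 and 1.97. The median for the 61 bound cytoplasmic ribosomal protein genes was 1.85.

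**Figure D2:**
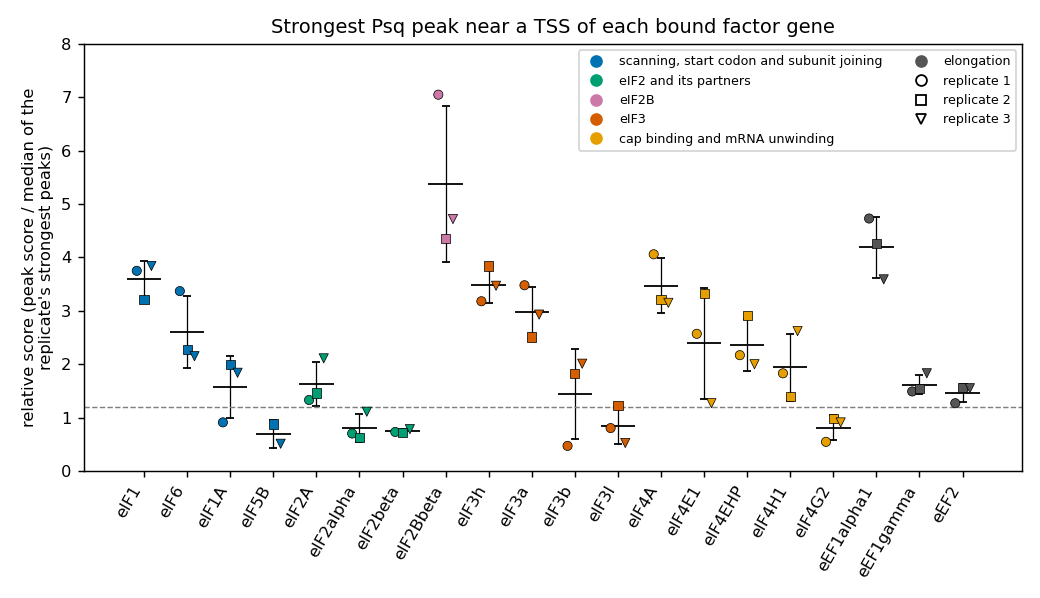
Relative score of the strongest Psq peak near a TSS of each bound factor gene (peak score over the median of the replicate's strongest peaks), ordered by function, with 1 symbol per replicate, the mean as a bar and the SD as whiskers. The dashed line is the median over all bound protein-coding genes, 1.20; eIF2Bbeta has the highest mean, 5.38, and the widest whiskers, while eIF2beta and eIF5B lie below the line. eIF3j, with no replicate summit within 200 bp, is not drawn.

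Among factors for scanning, start codon recognition and the joining of ribosomal subunits, 4 of 5 genes were bound. The gene of eIF1, which keeps the scanning ribosome from starting at wrong codons, lies beside RpL28, a gene of the large ribosomal subunit. Its strongest peak (dm6 chr3L:3222891-3223109) had relative scores of 3.75, 3.21 and 3.84 in replicates 1 to 3. The replicates lay close together, at 3.60 ± 0.339 (SD, n = 3). That summit, however, was 30 bp from the RpL28 TSS and 351 bp upstream of the eIF1 TSS. A weaker peak (chr3L:3223256-3223390) lay 15 bp inside eIF1, at 0.29, 1.00 and 0.468.

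eIF6, which keeps large ribosomal subunits apart from small ones, had a peak 87 bp upstream of its TSS (chr2R:23850212-23850525). The relative scores were 3.37, 2.27 and 2.15, highest in replicate 1. A noncoding antisense RNA gene, asRNA:CR45928, has a TSS 58 bp from that summit. eIF1A, a partner of eIF1, had an intronic peak 483 bp downstream of a TSS (chr3R:18275101-18275253), at 0.911, 1.99 and 1.84. Replicate 1 was the low one. eIF5B, the GTPase that joins the subunits, had a peak in its 5′ UTR at 0.879 in replicate 2 and 0.51 in replicate 3, with none within 200 bp in replicate 1. The exception was eIF5, the GTPase-activating partner of eIF2, whose nearest optimal summit was 98183 bp from a TSS.

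The eIF2 complex carries the initiator tRNA to the ribosome, and its alpha subunit is the target of stress kinases. eIF2alpha had a peak with its summit 1 bp upstream of the TSS (chrX:16446951-16447057), at 0.702, 0.622 and 1.11. eIF2beta had a peak 262 bp upstream (chr3L:12526929-12527057), with nearly the same value in every replicate, 0.731, 0.716 and 0.783. Both lie below the median of all bound genes. The alternative initiation factor gene eIF2A had a summit in its 5′ UTR, 54 bp from a TSS (chr3L:21824845-21825012), at 1.33, 1.46 and 2.11. eIF2D, another factor able to bring initiator tRNA to the ribosome, had no optimal summit within 26939 bp of its TSS.

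eIF2gamma, the GTP-binding subunit, was not bound by the optimal list but had a strong peak in every replicate. On chromosome arm 3R the gene shares its outer TSS with Su(var)3-9, a histone H3 lysine 9 methyltransferase gene, and the TSS of Set lies beside it. Relative scores there were 2.08 in replicate 1 (chr3R:15263410-15263557), 2.08 in replicate 2 and 2.82 in replicate 3. These peaks ranked 1857, 1805 and 1089 in their lists, with summits 45, 61 and 43 bp from the TSS. In the list called on all replicates together the nearest summits lay 540 and 750 bp away, at ranks 14962 and 22069, outside the 10138 optimal peaks. The cause was not tested.

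eIF2B recharges eIF2 with GTP, and 1 of its 5 subunit genes was bound. That was eIF2Bbeta, whose peak (chrX:2703699-2704047) was the highest of any factor gene, at rank 263 of the optimal list. Relative scores were 7.05, 4.36 and 4.72, so replicate 1 stood above the other two, with 5.38 ± 1.46 overall (SD, n = 3). The summit lay 674 bp upstream of eIF2Bbeta and 45 bp from the TSS of Ugalt, a nucleotide sugar transporter gene. It was not counted for eIF2Bbeta by the rule of the nearest TSS. eIF2Bdelta and eIF2Bgamma were bound by the strongest peaks of replicates 2 and 3. For eIF2Bdelta these peaks lay at separate sites, chr2R:23386356-23386615 in replicate 2 (0.632) and chr2R:23385678-23385907 in replicate 3 (0.470). A replicate 1 peak at 0.397, not among its strongest, overlapped that of replicate 3. For eIF2Bgamma the peaks of replicates 2 and 3 were at 0.593 and 1.03, 39 and 28 bp upstream of its TSS. Replicate 1 held a peak at 0.111 only for this gene. eIF2Balpha and eIF2Bepsilon, the catalytic subunit, had no peak near a TSS in any replicate.

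eIF3, the largest initiation factor, holds the small subunit and mRNA together, and 5 of its 16 genes (31.2%) were bound. Over the replicates 27.1% ± 3.61 of these genes were bound (SD, n = 3), close to the share of all protein-coding genes. The 16 include the additional copies eIF3d2, eIF3f2 and eIF3g2, none of which was bound. The strongest peak was that of eIF3h (chr2L:5052690-5052902), 37 bp upstream of a TSS, at 3.18, 3.84 and 3.47. eIF3a, the subunit on which the complex assembles, followed with a summit 52 bp upstream (chr3R:4433851-4434049), at 3.48, 2.51 and 2.93. The eIF3h summit lay in its 5′ UTR, 26 bp from the TSS of senju, and the eIF3a summit lay between genes, 18 bp from the TSS of CG1074.

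The other three eIF3 genes had weaker or less steady peaks. The strongest peak counted for eIF3b was 66 bp from the TSS of Patronin, a gene for a microtubule end-binding protein, and 630 bp from eIF3b, at 0.47, 1.82 and 2.01. A peak inside eIF3b, 29 bp from a TSS, was at 0.794, 0.87 and 0.471. eIF3l had its strongest peak 33 bp from the TSS of Nrx-IV, a septate junction gene, at 0.804, 1.22 and 0.524, and another 28 bp from its own TSS. The narrow optimal peak of eIF3j (chr2R:9968996-9969061), 15 bp from a TSS, had no replicate summit within 200 bp, and only replicate 2 held a strong peak within 1000 bp of this gene. The unbound subunit genes were eIF3c, eIF3d1, eIF3d2, eIF3e, eIF3f1, eIF3f2, eIF3g1, eIF3g2, eIF3i, eIF3k and eIF3m.

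Among genes for cap binding and mRNA unwinding 5 of 13 were bound, the same 38.5% in every replicate. The 13 include the additional copies eIF4E3, eIF4E4, eIF4E5, eIF4E6, eIF4E7, eIF4G2 and eIF4H2, of which only eIF4G2 was bound. eIF4A, the RNA helicase of the cap complex, had 5 optimal summits near its TSSs. The strongest (chr2L:5982363-5982626) lay in the 5′ UTR, 87 bp from the nearest TSS, at 4.06, 3.21 and 3.15. The others ranged from 0.453 to 1.55 in mean relative score, and 1 of them lay 15 bp from the TSS of chic, the profilin gene. eIF4E1, the main cap-binding protein gene, had 3 summits, the strongest (chr3L:9401837-9402093) 160 bp downstream of a TSS. Its relative scores of 2.57, 3.33 and 1.27 differed widely, with replicate 3 the lowest.

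eIF4EHP, a cap-binding protein that blocks translation of bound mRNAs, had a peak 39 bp upstream of its TSS (chr3R:24108905-24109104), at 2.17, 2.92 and 2.00. eIF4H1, a cofactor of the helicase, had its strongest peak in an intron, 147 bp from a TSS (chrX:16448905-16449097), at 1.83, 1.39 and 2.62. eIF4G2, a male germline copy of the scaffold protein gene, had a summit 5 bp upstream of a TSS and 5 bp from a TSS of CG33111, at 0.546, 0.984 and 0.91. Its widely used counterpart eIF4G1, on chromosome 4, had no optimal summit within 98670 bp. eIF4B, another cofactor of the helicase, lay farther from an optimal summit than any other factor gene, at 4979405 bp. The whole stretch of 3L between them is without a call, so this distance is not particular to eIF4B.

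Of the 8 elongation factor genes 3 were bound. eEF1alpha1 encodes the factor that delivers aminoacyl-tRNA and had 5 optimal summits near its 4 TSSs. The strongest (chr2R:11890820-11891137) was at 4.73, 4.26 and 3.59, or 4.19 ± 0.573 (SD, n = 3), and lay 140 bp upstream. The TSS of ERp60, a protein disulfide isomerase gene, was 16 bp from the same summit. A further peak 14 bp from an internal TSS (chr2R:11891953-11892248) was at 2.07, 2.25 and 2.98, and no other gene had a TSS within 1000 bp of it.

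eEF2, which moves the ribosome by a codon, had a single peak with its summit 1 bp from a TSS (chr2L:21682057-21682234), at 1.27, 1.57 and 1.55. eEF1gamma, a subunit of the exchange factor of eEF1alpha1, had a single peak 9 bp upstream of its TSS (chr3R:29220053-29220249), at 1.49, 1.55 and 1.83. Both peaks lay within 1000 bp of no other gene's TSS. The exchange factor genes eEF1beta and eEF1delta, the selenocysteine factor gene eEFSec, eEF5 (the hypusine-bearing factor also known as eIF5A) and eEF1alpha2 were not bound. eEF5 had a peak among the strongest of replicates 1 (0.562) and 2 (1.16), each within 28 bp of a TSS, and eEF1alpha2 among those of replicate 1.

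Summits lay close to the TSSs and mostly upstream of the nearest TSS of the gene. The median distance from a gene's strongest summit to its nearest TSS was 87.0 bp, against 117 bp for all bound protein-coding genes and 20.0 bp for bound ribosomal protein genes. Of the 21 strongest summits 18 (85.7%) were upstream, against 68.2% of all bound genes. Upstream here refers to the nearest TSS of the gene, which may be an internal one. The summits of eEF2, eIF2A, eIF3h, eIF3j, eIF4A and eIF4H1 counted as upstream yet lay inside the annotated gene. Another protein-coding gene had a TSS within 1000 bp of 13 of them (61.9%), against 51.5% for all bound genes. The factor gene itself held the nearest TSS in 13 (61.9%), against 72.4%. Thus 8 of the 21 strongest peaks were nearer to another gene, and which gene such a peak acts on cannot be told from its position.

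**Figure D3:**
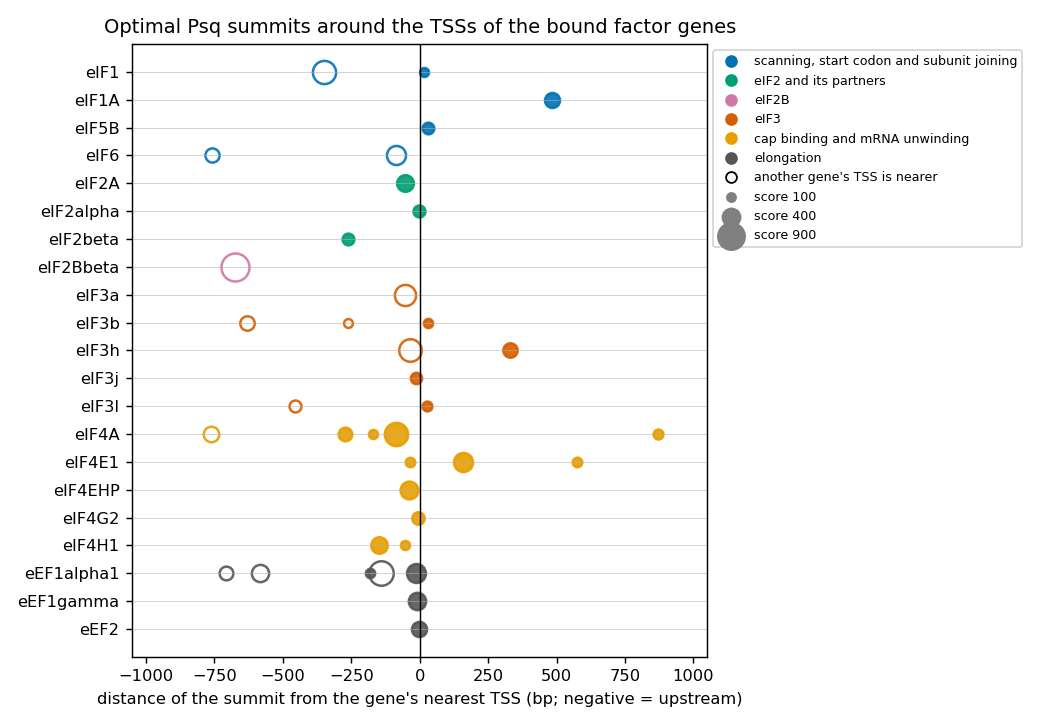
Position of every optimal Psq summit within 1000 bp of a TSS of the 21 bound factor genes, in bp from the nearest TSS of that gene (negative is upstream), with circle area proportional to the score. Open circles have the TSS of another gene nearer; the highest peaks of eIF1, eIF2Bbeta and eEF1alpha1 are open circles, and eIF4A and eEF1alpha1 have 5 summits each.

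Sequence words that fly promoters are known to carry were then counted within 100 bp of the strongest summit of each bound gene, on both strands. GAGAG, the core of the GA repeat, was present at 6 of 21 factor genes (28.6%), against 41.4% of all bound genes. TATCGATA, the site of the DREF factor known from genes of growth and DNA replication, was also present at 6 (28.6%), against 8.29%. No summit had both words, against 1.22% of all bound genes. In the replicates GAGAG was found at 25.7% ± 4.13 and TATCGATA at 28.8% ± 4.17 of the bound factor genes (SD, n = 3 each). GGTCACAC, a word from a housekeeping promoter element, was present at 4 (19.0%), against 6.67%. GAGAGAGA, which contains GAGAG, was at 1 (4.76%, against 7.64%), CACACACA at 3 (14.3%, against 12.2%) and AACCGGTT at none (against 0.575%). Bound ribosomal protein genes had GAGAG at 8.20%, TATCGATA at 24.6% and GGTCACAC at 16.4%.

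The 6 genes with GAGAG were eEF1alpha1, eIF1A, eIF3b, eIF4A, eIF4E1 and eIF4H1. All of them have 2 to 4 TSSs, and their summits were at a median of 154 bp from a TSS. The sequences below show the GA word nearest to the summit in 4 of them, read on the strand of the gene from the RefSeq sequence of dm6, with GAGAG or its complement CTCTC in capitals. They lie at chrX:16448896-16448960 (plus strand), chr3R:18275151-18275215 (plus), chr2L:5982471-5982499 (plus) and chr3L:9401940-9401968 (minus).
eIF4H1: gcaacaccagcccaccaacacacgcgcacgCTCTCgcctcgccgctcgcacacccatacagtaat
eIF1A: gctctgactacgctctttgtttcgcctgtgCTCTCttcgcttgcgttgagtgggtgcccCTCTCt
eIF4A: atcgctcggctgCTCTCgcccgttgacat
eIF4E1: tcagtgttctcgCTCTCTCTCTCttgtca
The run in eIF4E1 is the only one long enough to hold GAGAGAGA, and 7 overlapping or separate GAGAG matches lay within 100 bp of its summit. In each of the 4 the word lay within 77 bp of the summit.

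The 6 genes with TATCGATA were eEF1gamma, eIF1, eIF2A, eIF2alpha, eIF3a and eIF6. Of these 4 have a single TSS, and the median distance of the summit to a TSS was 53.0 bp. Relative scores spanned 0.811 to 3.60 in this set and 1.44 to 4.19 in the set with GAGAG, so the sets overlap. The sequences below show the word, in capitals, on the strand of the gene. They lie at chr3R:4433896-4433963 (minus strand), chr3R:29220101-29220168 (plus), chrX:16446969-16447036 (minus), chr3L:21824865-21824894 (plus) and chr3L:3223015-3223082 (plus).
eIF3a: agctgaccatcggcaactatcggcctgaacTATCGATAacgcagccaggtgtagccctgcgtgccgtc
eEF1gamma: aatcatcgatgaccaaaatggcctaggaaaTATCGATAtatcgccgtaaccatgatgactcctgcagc
eIF2alpha: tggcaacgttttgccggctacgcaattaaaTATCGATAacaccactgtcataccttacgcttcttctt
eIF2A: ttactatcgctTATCGATAcaccgcgtaca
eIF1: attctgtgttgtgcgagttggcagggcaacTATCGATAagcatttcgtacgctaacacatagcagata
In eIF2alpha the word lay 9 bp from the summit, in eIF3a 17 bp, in eEF1gamma 28 bp and in eIF2A 31 bp. The eIF1 sequence belongs to the peak at RpL28 and lies 59 bp from that summit.

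Counted instead within 100 bp of the TSS farthest upstream, whether or not a peak was there, GAGAG was again less frequent and TATCGATA more frequent than over all genes. GAGAG was near that TSS in 5 of 52 factor genes (9.62%), against 22.5% of all protein-coding genes. TATCGATA was near it in 12 of 52 (23.1%), against 7.84%. Among bound factor genes 7 of 21 (33.3%) had TATCGATA there, against 5 of 31 (16.1%) of the unbound ones, eEF1delta, eIF2gamma, eIF3f1, eIF4B and eIF4E6. Over all protein-coding genes the word was likewise more frequent in the bound (11.6%) than in the unbound (6.32%). For GAGAG the shares were 9.52% of the bound and 9.68% of the unbound factor genes, against 28.2% of bound and 20.2% of unbound protein-coding genes. The presence of a word is a description and marks no site of binding.

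**Figure D4:**
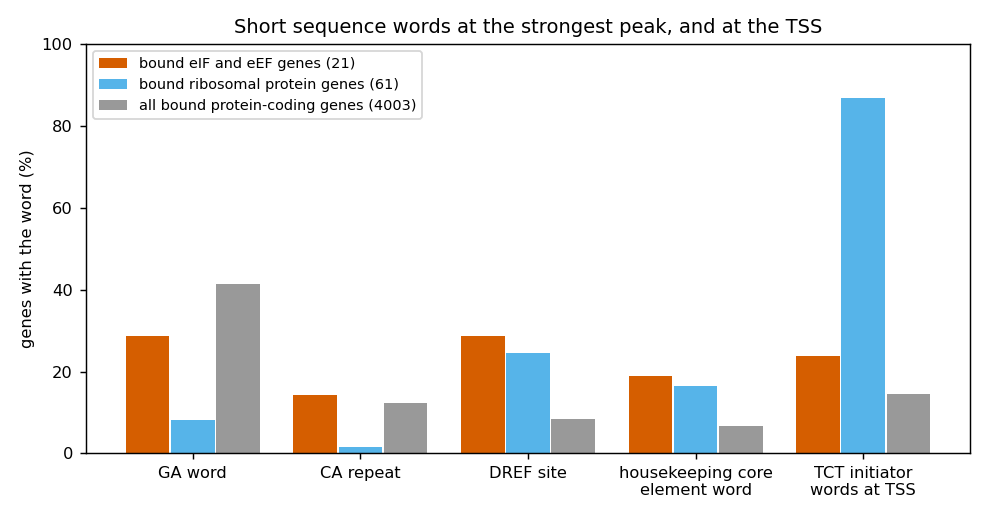
Percent of genes with each sequence word, for bound eIF and eEF genes, bound ribosomal protein genes and all bound protein-coding genes; the GA word, CA repeat, DREF site and housekeeping word were sought within 100 bp of the strongest summit and the TCT initiator words at the TSS. The factor genes have the DREF site at 28.6% against 8.29% of all bound genes, and the TCT words at 23.8% against 86.9% of ribosomal protein genes.

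Genes of the translation machinery are known for an unusual initiator, the TCT element, in which transcription starts at a C within a run of pyrimidines. CTTTT or CTTTC was sought on the strand of the gene, starting within 10 bp of any annotated TSS. One of these words was present in 13 of 52 factor genes (25.0%), against 9.53% of all protein-coding genes and 72 of 85 ribosomal protein genes (84.7%). Among the factor genes it was in 5 of the 21 bound (23.8%) and 8 of the 31 unbound (25.8%). Over all protein-coding genes it was in 14.6% of the bound and 7.48% of the unbound. In eIF3 the 6 genes with the word, eIF3c, eIF3e, eIF3f1, eIF3g1, eIF3i and eIF3m, were all unbound, and none of the 5 bound eIF3 genes had it. The sequences around a TSS of 4 unbound eIF3 genes are shown here, followed by those of bound eEF2, eIF4A and, for comparison, RpL28, with the word in capitals. They lie at chr3L:16786927-16786951 (minus strand), chr3R:4714168-4714192 (minus), chrX:2610322-2610346 (minus), chr2L:4967761-4967785 (minus), chr2L:21682102-21682126 (minus), chr2L:5981754-5981778 (plus) and chr3L:3222946-3222970 (minus).
eIF3e: ctctgagcgggcgtcactCTTTTcg
eIF3f1: actatcgataggccCTTTTcttgca
eIF3g1: cgcggcagggtaacactCTTTTgtt
eIF3i: cacggtcacactgctCTTTTggcgt
eEF2: tgcagcgcctcgctCTTTCctgtcg
eIF4A: gcaagatggagcctCTTTTgcttgg
RpL28: cgggctgccatatttCTTTCcttct
In each of these sequences the word starts downstream of the annotated TSS, and whether transcription starts at its C was not tested. The unbound eIF3f1 promoter carries the DREF word in this window too, and that of eIF3i the housekeeping word.

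Most of the 31 unbound factor genes had no peak near a TSS in any replicate. For 20 there was no peak near a TSS in the full list of any replicate, which includes peaks the authors treat as background. In the strongest lists 26 had none, eEF1alpha2 had 1 in replicate 1 only, eEF5, eIF2Bdelta and eIF2Bgamma had 1 in each of 2 replicates, and eIF2gamma had 1 in all 3. No unbound factor gene held an optimal summit anywhere inside it, against 1.65% of unbound protein-coding genes that did. The median distance from a TSS to the nearest optimal summit was 16412 bp, and in 19 of the 31 (61.3%) it was over 10 kb. For all unbound protein-coding genes on the same chromosomes the median was 12860 bp, and 57.8% were over 10 kb away. Of the unbound factor genes 83.9% were absent from every strongest list, against 87.5% of all unbound genes. Absent from every full replicate list were 64.5% of the unbound factor genes, against 73.0%.

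The additional copies of factor genes are eEF1alpha2, eIF3d2, eIF3f2, eIF3g2, eIF4E3, eIF4E4, eIF4E5, eIF4E6, eIF4E7, eIF4G2 and eIF4H2, several of which are known for expression in the male germline. Only eIF4G2 was bound (1 of 11, 9.09%), against 20 of the 41 other factor genes (48.8%). In the 3 replicate lists 12.1% ± 5.25 of the copies and 53.7% ± 4.88 of the other factor genes were bound (SD, n = 3 each). The share of all protein-coding genes was 28.7%. Of the copies 9 have a single TSS, and 0 of these were bound, against 20.5% of all genes with 1 TSS. Both eEF1alpha2 and eIF4G2 have 2. Germline chromatin was not measured apart from the rest of the larva.

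Other genes of translation differed widely in the share bound, which was 28.7% for all protein-coding genes. Of 13 regulators of initiation 11 were bound, and 87.2% ± 4.44 over the replicates (SD, n = 3). By score in the optimal list they were led by larp, an mRNA-binding protein gene (3.99 ± 1.89), pAbp, the poly(A)-binding protein gene (2.90 ± 0.606), Lk6, a kinase gene whose product phosphorylates eIF4E (2.34 ± 0.645), and NAT1, a relative of eIF4G (1.69 ± 0.388; SD, n = 3 each). The Lk6 summit lay 995 bp downstream of a TSS, near the edge of the 1000 bp window. Thor, the eIF4E-binding inhibitor gene, was at 2.04 ± 0.34 (SD, n = 3), named here for its role. The eIF2 kinase gene PEK was bound, while the eIF2 kinase gene Gcn2 and cup were not. Of 7 termination and recycling genes 6 were bound, all but DENR. The termination factor gene eRF3 had relative scores of 6.80, 7.08 and 6.09 in the replicates, a higher mean (6.66) than that of any factor gene above, with no other gene's TSS within 1000 bp of its summit. The other five were at 0.976 or lower in the mean. Next by optimal score were eRF1, which reads stop codons (0.976, in 2 replicates), the recycling factor gene pix (0.703 ± 0.439) and the ribosome rescue gene pelo (0.447 ± 0.221; SD, n = 3 each). The optimal score of pelo, 100, was near the lowest of that list, 90.3.

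Cytosolic aminoacyl-tRNA synthetases, which charge tRNAs, were bound at 7 of 20 (35.0%), or 33.3% ± 7.64 over the replicates (SD, n = 3), near the share of all genes. The highest by score in the optimal list were HisRS (1.30 ± 0.383), AspRS (0.883 ± 0.232) and GluProRS (0.654 ± 0.245; SD, n = 3 each). The HisRS summit lay 708 bp downstream of its own TSS and equally far from a TSS of Bx. GlyRS was at 0.573, with a summit in 2 replicates. Mitochondrial translation factors were bound at 1 of 8, mIF2 (0.359 ± 0.106, SD, n = 3). In the strongest peaks of replicates 1 to 3, 1, 0 and 0 of these genes were bound. The mIF2 values of 0.459, 0.370 and 0.247 lay below the lowest relative scores of those peaks, 0.460, 0.468 and 0.421. Cytoplasmic ribosomal protein genes were bound at 74.1% ± 2.04 (SD, n = 3) over the replicates, above the 44.9% ± 2.94 of the factor genes.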

How the data were processed

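Binding of psq-eGFP was measured by ChIP-seq in 3 larval replicates, which are biological replicates per the labels. The deposited file listing gives a peak list for each replicate, another called on all replicates jointly, a shared control alignment, and an optimal list thresholded on the irreproducible discovery rate. The sources used here do not give the aligner or the peak caller. The score of each peak and its summit offset are the authors' deposited values on dm6, and scores of different lists are not on a shared scale. The lists hold no number of reads, and the depth is unknown. The 3 replicate lists held 28037, 28294 and 24291 peaks, and the optimal list 10138.

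Genes and TSSs came from Ensembl release 115 without transposable elements (18277 genes), and sequence from the RefSeq assembly of dm6, whose arm lengths contain all peaks. Peaks on the 6 arms 2L, 2R, 3L, 3R, 4 and X were used. Summits were assigned with Python 3.11.15 and pandas 2.3.3, tested on simulated data. Replicate summits were matched within 200 bp. Members, lists and measures were chosen with earlier results of these data known. All members are named, and in other lists at most the 4 bound genes highest in optimal score and up to 4 unbound genes. Thor and PEK were added for their role after their values were seen. The symbol mEFG2 matched no protein-coding gene. No test was run, because there is a single group. Distances, peak sets, scaling and windows were varied.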

Additional observations from a re-analysis of the deposited data

How the results depend on the processing

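The number of factor genes bound by the optimal list, 21, stayed between 16 and 27 under every alternative to that count. Its share stayed above that of all protein-coding genes in each of these. The counts in single replicate lists are given apart below. That background share was 21.5%, 25.6% and 32.9% with TSS distances of 200, 500 and 2000 bp, 18.4% in the higher-scoring part of the optimal list, 23.0% for the nearest gene only, 26.9% with the TSS farthest upstream, 19.4% with support in every replicate and 37.9% in the full list called on all replicates together. For each replicate in turn, optimal peaks were also kept only with a summit within 200 bp among the strongest peaks of both other replicates. The share was then 21.1% to 21.8%, with 19 to 20 factor genes. The optimal list was not called again without a replicate. With the strongest 5069 peaks in place of 10138, the factor genes bound were 14 in place of 22 in replicate 1, 18 in place of 25 in replicate 2 and 18 in place of 23 in replicate 3. The shares of all protein-coding genes were then 18.2%, 18.5% and 18.2%.

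The median relative score of 1.79 was 1.63 with matches within 500 bp, 1.52 for the peak nearest to a TSS (chosen after seeing the data), 6.03 when divided by the median of all peaks, which changes the scale, and 1.56 to 1.96 without a replicate. For the peak nearest to a TSS, 5 of 20 genes moved by at least 1 SD, among them eIF1, to 0.588. No value over all bound genes is given beside that 1.52. GAGAG was at 23.8% of bound factor genes within 50 bp, 42.9% within 250 bp and 19.0% at the nearest peak, where all bound genes had 25.6%, 58.9% and 36.4%. TATCGATA was at 19.0% within 50 bp, against 5.45%. CACACACA was at 4.76% within 50 bp, 28.6% within 250 bp and 0 at the nearest peak, where all bound genes had 6.72%, 21.3% and 9.57%. GAGAGAGA was at 0 at the nearest peak, against 5.62%. The median distance to a TSS, 87.0 bp, was 112 bp in replicate 1, 116 bp in replicate 2 and 80.5 bp in replicate 3. In replicates 1 and 2 it was thus near the 117 bp of all bound genes in the optimal list. No value of all bound genes is given for single replicates. No paired analysis was possible because there is a single group.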

Other observations

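The absence of the eIF2gamma peak from the list called on all replicates together was not unique to that gene. Of 5997 strongest peaks of replicate 1 with such a peak within 200 bp in both other replicates, 66 (1.10%) had no summit of that list within 200 bp. Among these 66, 8 ranked in the strongest 2000 of replicate 1, and the one at eIF2gamma was the only one within 1000 bp of a TSS of a factor gene.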
